A study of Arabidopsis thaliana with 6 samples.

Results

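RNA immunoprecipitation followed by sequencing (RIP-seq) of the ASI1 line was compared with the input RNA of the same line, gene by gene. All 4020 genes listed for the ASI1 line were taken, out of 6351 listed for either genotype of the study, and genes not listed for wild type (WT) were kept. The comparison used 3 of the 6 libraries of the study, ASI1 RIP 1, ASI1 RIP 2 and 1 ASI1 input, each scaled to its counts outside the 4 ribosomal RNA (rRNA) genes AT3G41768, AT2G01010, AT2G01020 and AT3G41979. This left 4016 genes, whose levels are given as CPM outside rRNA, the counts of a gene per 1000000 counts outside rRNA of its library. Plants were whole Arabidopsis thaliana seedlings of the Col-0 ecotype, 14 d old, kept at 22 °C in days of 16 h light and 8 h dark, with 1% sucrose in the medium. Tissue of every group was crosslinked with 0.5% formaldehyde, and protein with its RNA was then pulled down by an anti-Flag antibody. The groups are labelled by the names ASI1 and WT; that the ASI1 line carries a Flag-tagged ASI1 and that WT is untagged was inferred from the antibody. The sources used here give neither the promoter of such a transgene nor the number of lines. Whether the RIP libraries came from separate cultures is not stated, so their spread may be technical, and the single input leaves the spread of the input unmeasured.

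ASI1 is a nuclear protein with a bromo-adjacent homology domain and an RNA recognition motif. It acts with EDM2 and AIPP1 at genes that carry heterochromatin within an intron, where the complex favours transcripts that run through the intron to the distal polyadenylation site. In RIP, crosslinked protein is pulled down with its RNA, and a transcript that is a larger share of the precipitate than of the input is said to be enriched. An enrichment can also come from RNA that sticks to the beads or antibody, which is why an untagged line is processed in parallel.

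The genes that carried the largest difference from the input included a group whose sequence matches an abundant structural RNA. Transcripts of 4 listed genes matched the gene of 7SL RNA, AT7SL-1 (AT4G02970), the RNA of the signal recognition particle, which targets secreted proteins to the endoplasmic reticulum. A stretch of 27 bases is identical in 3 of them and is shown with 1 base before and 2 after it, in capitals where a base is identical to that shared stretch, beside the 7SL gene itself. Sequences and coordinates are from RefSeq, build TAIR10.1.
AT1G15405, chr1:5297970-5297999, minus strand: tGCGTGAGGCTGGTTTCACAGAGCAGCGat
RR3, chr2:17224693-17224722, plus strand: cGCGTGAGGCTGGTTTCACAGAGCAGCGtc
AT2G31141, chr2:13271952-13271981, minus strand: tGCGTGAGGCTGGTTTCACAGAGCAGCGac
AT7SL-1, chr4:1318973-1319002, minus strand: tGCGTGAGGCTGGcTTCACAGAGCAGCGac
The 7SL gene carries 26 of the 27 bases. The window of RR3 lies in the 3′ untranslated region, downstream of its coding sequence.

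The sequence of U1.5 is shown because its gene was the most abundant small nuclear RNA in the RIP libraries. U1.5 (AT1G08115) encodes a U1 snRNA, the RNA of the spliceosome particle that pairs with 5′ splice sites and that also restrains premature cleavage and polyadenylation in animals. The capitals mark the 5′ end that pairs with the splice site.
U1.5, chr1:2538074-2538238, minus strand: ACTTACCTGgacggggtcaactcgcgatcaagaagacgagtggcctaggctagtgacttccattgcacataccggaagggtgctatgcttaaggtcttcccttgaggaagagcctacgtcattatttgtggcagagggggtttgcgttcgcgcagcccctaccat

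The input was the shallowest of the ASI1 libraries outside rRNA. It held 23810.4 counts outside rRNA, against 448561 in RIP 1 and 362058 in RIP 2, and rRNA took 99.5% of its listed counts and 82.5% and 79.9% of those of the RIP libraries. At least 20 counts were reached by 142 genes in the input, 2857 in RIP 1 and 2416 in RIP 2, and the median gene above 0 had 3.09, 92.0 and 88.8 counts. A count of 3 stood for 126 CPM outside rRNA in the input, 6.69 in RIP 1 and 8.29 in RIP 2; this level is used as the floor for a gene at 0. Listing required a value above 0 in 2 or more of the 3 libraries, so each of the 279 genes at 0 in the input had to be above 0 in both RIP libraries. Ratios below carry exact 95% intervals of the counts; no molecular identifiers are mentioned in the labels, and the intervals cover counting error only. No seed storage gene, which seedlings of this age should lack, was listed (0 genes), and nuclear photosynthesis genes were present, led by CAB1 at 9974 CPM outside rRNA in the input.

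Over the 4016 genes, 249 (6.2%) lay at least 2-fold above the input in both RIP libraries and 168 (4.18%) at least 2-fold below it. Only genes with at least 10 counts in the input could be 2-fold lower. The 168 were 96 of 334 genes with over 9 to 19 input reads and 72 of 144 with more. A further look at direction alone placed 949 genes (23.6%) above the input in both RIP libraries, 980 (24.4%) below it in both, and 2087 above it in one and not in the other. Of the 249 genes, 42 were at 0 in the input, 122 had from 1 to 3 counts there, and 6 had 20 or more. These 6, the best measured of the higher genes, were AT2G15880, U1.5, AT1G60200, AT1G58561, UBQ10 and PERK1. Among the 117 genes with at least 20 counts in all 3 libraries, 17 lay above the input in both RIP libraries and 89 below it. That minimum is a higher level in the shallow input than in the RIP libraries, so the choice itself leans towards genes below the input. These well covered genes held 34.7% of the input counts outside rRNA and 17.1% and 17.5% of those of RIP 1 and RIP 2.

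edgeR's quasi-likelihood test called 1 gene higher (0.0254% of 3934 genes tested) and 4 lower (0.102%), at a Benjamini-Hochberg adjusted p under 0.05 and a log2 fold of at least 1, and 97 genes had an unadjusted p under 0.05. DESeq2, run on the same counts, called 17 higher and 20 lower, all 5 edgeR genes among them. The edgeR fit rests on 1 residual degree of freedom, between the RIP libraries, and its common dispersion of 3.30 corresponds to a biological coefficient of variation of 1.82. Its median prior degrees of freedom were infinite, so the quasi-likelihood spread was taken from a trend with abundance over all genes. The edgeR p-values and SEs therefore do not measure a single gene's own spread between the RIP libraries. The median log2 fold over all tested genes was 0.43. Scaled to all listed counts with rRNA kept, that median moved to 5.45, edgeR called 494 genes higher and 0 lower, and the 4 genes named below as lower had positive folds. With the 27 genes of such matching sequence described next left out of the totals and the fit, edgeR called 0 genes higher and 0 lower, while 83 had an unadjusted p under 0.05. The 4 lower genes are among those 27, so their loss was set by leaving them out.

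**Figure D1:**
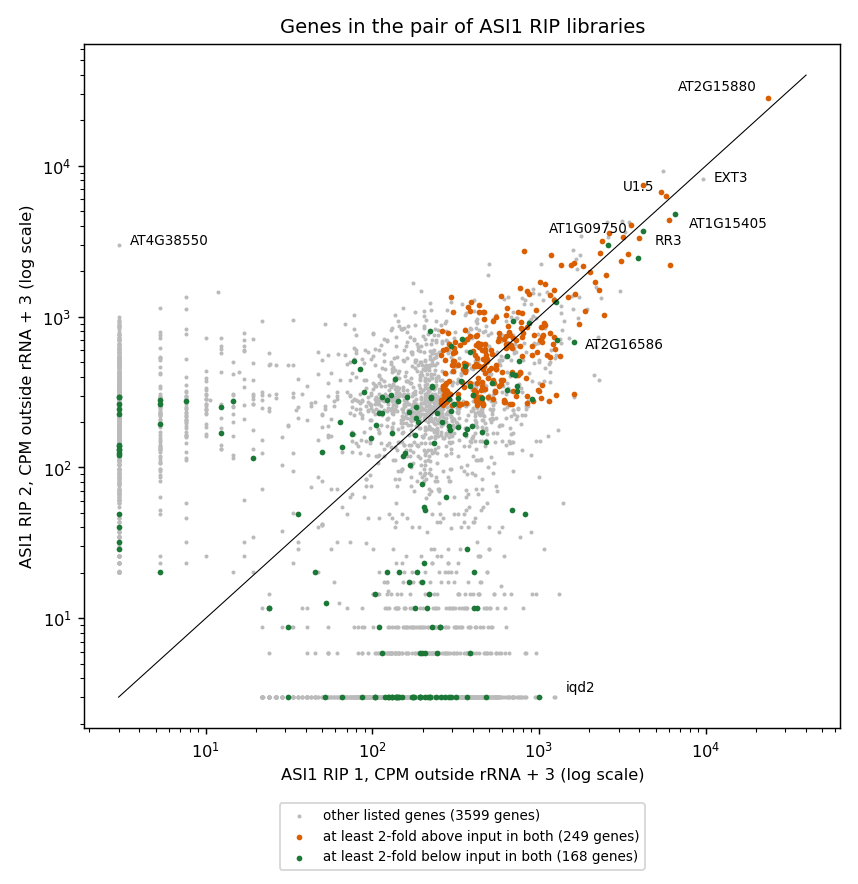
Each point is 1 of the 4016 genes, with its level in ASI1 RIP 1 on the horizontal axis and in ASI1 RIP 2 on the vertical axis, both in CPM outside rRNA with 3 added, on log scales; the line marks equal levels. The abundant genes lie near the line, whereas 1783 genes have 20 or more counts in 1 RIP library and 0 in the other, along the axes. Orange and green mark the 249 and 168 genes at least 2-fold above and below the input in both libraries.

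All 4 genes that fell in the test have sequence that matches the rRNA spacer, 7SL RNA or the mitochondrial genome. RR3, a type-A response regulator of cytokinin signalling, had 54210.1 CPM outside rRNA in the input, 4228 in RIP 1 and 3720.1 in RIP 2. Its ratios to the input were 0.0780 (95% interval 0.0726 to 0.0837) and 0.0686 (0.0635 to 0.0741), and its log2 fold was -3.77 (SE 0.868, adjusted p = 0.0113 in edgeR). It was the most abundant gene outside rRNA in the input, and both RIP libraries stood far below. Its transcript matched the 7SL gene at 71.1% over 246 bases, from base 2006 to base 2245.

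AT1G15405, annotated as a noncoding RNA of 292 bases, lay lower in the RIP libraries as well but did not pass. It stood at 50404 CPM outside rRNA in the input, 6509 in RIP 1 and 4811 in RIP 2 (log2 fold -3.15, adjusted p = 0.150 in edgeR; 9.36e-51 in DESeq2). Its match to the 7SL gene covers nearly its whole length, 262 aligned bases at 82.4% identity. AT2G31141, with a match of 287 bases at 83.6%, had 5874 CPM outside rRNA in the input, 862 in RIP 1 and 911 in RIP 2. BXL3 (AT5G09730), a beta-xylosidase of the cell wall, matched on the opposite strand and had 1339, 0 and 291 CPM outside rRNA. The 4 genes together held 11.2% of the input counts outside rRNA, against 1.16% of RIP 1 and 0.973% of RIP 2. In WT they held 6.35% of the input, 1.52% of RIP 1 and 1.55% of RIP 2, so the share was lower in the RIP than in the input there too. Whether reads of 7SL RNA were counted at these genes was not tested.

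The next sequence group matched the spacer that precedes the 18S rRNA gene on chromosome 3. AT2G16586 carries 608 bases at 98.8% identity to the stretch from 14196889 to 14197496, which ends 180 bases before the 18S gene. It had 19115 CPM outside rRNA in the input, 1617 in RIP 1 and 679.99 in RIP 2, and fell by 4.06 on the log2 scale (SE 0.785, adjusted p = 0.000978 in edgeR). AT2G01008, annotated as a maternal effect embryo arrest protein, carries 1305 bases at 98.7% identity to the stretch from 14195840 to 14197144. It had 8685, 758 and 509 CPM outside rRNA and fell by 3.78 (SE 0.765, adjusted p = 0.00163 in edgeR). Their ratios to the input were from 0.0356 to 0.0873 in the RIP libraries. AT3G41762, which matches the opposite strand of the spacer, had 1008, 9.38 and 249.9 CPM outside rRNA. The 3 genes held 2.88% of the input counts outside rRNA and 0.239% and 0.144% of the RIP libraries; in WT the shares were 1.13% of the input, 0.143% of RIP 1 and 0.0720% of RIP 2.

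The remaining 20 genes matched the mitochondrial genome at 95% or more over at least 200 bases. A large insertion of mitochondrial DNA is known on chromosome 2, where the genes named here lie. AT2G07687, a copy of the gene of cytochrome c oxidase subunit III, had 5787 CPM outside rRNA in the input, 517 in RIP 1 and 358 in RIP 2, and fell by 3.73 (SE 0.797, adjusted p = 0.00392 in edgeR). In WT the same gene had 1705 CPM outside rRNA in the input and 7580.1 and 902 in the RIP libraries, with one above and one below. AT2G07698, a copy of an ATP synthase alpha subunit gene, was also abundant in the input, at 6910.3 CPM outside rRNA, with 2596 in RIP 1 and 2979.6 in RIP 2 (ratios 0.376, 95% interval 0.318 to 0.444, and 0.431, 0.365 to 0.510). Of the 20 genes, 12 lay below the input in both RIP libraries, 7 of them at least 2-fold, and 1 above. The median log2 fold was -1.21 (3.85 with rRNA kept in the totals, where the median of all genes was 5.45). They held 2.95% of the input counts outside rRNA and 0.914% and 0.877% of the RIP libraries. Together, the 27 genes of the 3 sequence groups held 17.0% of the input against 2.31% and 1.99%.

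**Figure D2:**
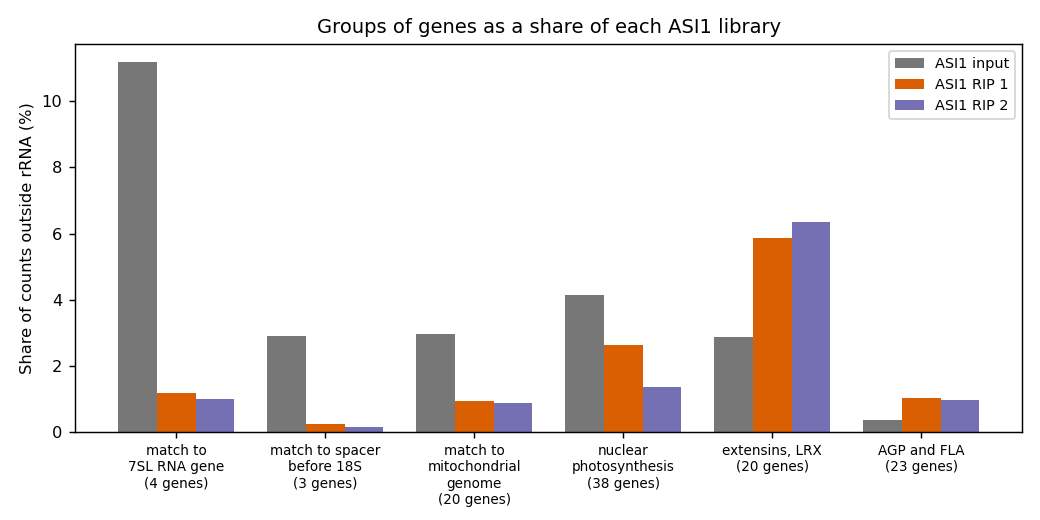
Bars give the share of counts outside rRNA (%) taken by 6 groups of genes in the ASI1 input, RIP 1 and RIP 2, 1 library per bar. The genes that match 7SL RNA take 11.2% of the input, 1.16% of RIP 1 and 0.973% of RIP 2, and the extensins and leucine-rich repeat extensins (LRX) take 2.87% of the input, 5.86% of RIP 1 and 6.35% of RIP 2; AGP and FLA are arabinogalactan and fasciclin-like proteins.

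AT1G09750 was the single gene that rose in the test. It encodes an aspartyl protease family protein on chromosome 1 (3157501 to 3159148, plus strand), and its counts were 3.09 in the input, 1782 in RIP 1 and 1196 in RIP 2. As CPM outside rRNA these are 129.6, 3974 and 3303, with ratios of 30.7 (95% interval 10.8 to 153) and 25.5 (8.95 to 127). Both RIP libraries were high, and the width of the intervals comes from the 3.09 counts of the input. The log2 fold was 4.85 (SE 1.08, adjusted p = 0.00789 in edgeR; 2.54e-05 in DESeq2). The call was lost at about the same fold with the 27 matching genes left out (log2 fold 4.61, adjusted p = 0.130 in edgeR) and with all 6 libraries fitted together (4.84, adjusted p = 1.00). In WT the RIP libraries, at 134 and 142 CPM outside rRNA, lay below the input at 451. The difference in enrichment between the genotypes was 6.56 (log2, SE 3.85, unadjusted p = 0.0884 in edgeR) and did not pass the test.

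That test of the difference, ASI1 minus WT, called 0 of 2233 genes in edgeR (0%), while 2 had an unadjusted p under 0.05; in DESeq2 it called 0, while 18 had one. No enrichment below is therefore shown to be particular to the ASI1 line. WT values stand beside the ASI1 values for some of the genes listed for both, and a gene given without them may still be listed for WT. Of 2319 genes shared by both genotypes, 159 were at least 2-fold above the input in both ASI1 RIP libraries and 52 in both WT RIP libraries. Of the ASI1 set, 11 genes (6.92%) were also in the WT set, against 52 of all 2319 shared genes. These 11 were 21.2% of the WT set, against 159 of all 2319 in the ASI1 set. They were PDF1, AT2G15880, AT1G70620, AGP9, LRX3, U1.5, GATA4, AT4G18670, AT1G20110, c-NAD-MDH1 and FLA18. At least 2-fold below the input, a class open only to genes with at least 10 input counts, lay 151 shared genes in ASI1 and 228 in WT. The 45 in both were 29.8% of the ASI1 set and 19.7% of the WT set. Of the 249 higher genes, 90 were absent from the WT table, against 1697 (42.3%) of all 4016 genes.

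Extensins and leucine-rich repeat extensins, hydroxyproline-rich proteins that crosslink in the cell wall, led the messenger RNAs of the precipitate. Whole seedlings were used, so fewer cells of a type and less RNA per cell cannot be told apart in any level given here. AT2G15880, known as a leucine-rich repeat extensin of pollen, a tissue that seedlings lack, had 2462 CPM outside rRNA in the input, 23664 in RIP 1 and 28019 in RIP 2. Its ratios were 9.61 (95% interval 7.40 to 12.6) and 11.4 (8.76 to 14.9); its log2 fold of 3.38 did not pass in edgeR (adjusted p = 0.301) and passed in DESeq2 (3.53e-27). It was the most abundant gene outside rRNA in both RIP libraries. WT was alike, with 2256 CPM outside rRNA in the input, 27868 in RIP 1 and 23216 in RIP 2.

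LRX3, a leucine-rich repeat extensin of vegetative cell walls, stood at 777 CPM outside rRNA in the input, 5358 in RIP 1 and 6747 in RIP 2 (ratios 6.89, 95% interval 4.29 to 11.2, and 8.68, 5.40 to 14.1). AT4G18670, of the same family, had 777, 3396 and 2599, and EXT4 had 605, 1547 and 2183. In all of these the RIP libraries lay above the input. The proline-rich extensin-like receptor kinase PERK1, which spans the plasma membrane, had 1079.7, 2636 and 3611, and its relative PERK8 259, 1249 and 606. EXT3, an extensin needed for the cross wall of dividing cells, was next in abundance to AT2G15880 in RIP 1, at 9599 and 8196 in the pair, but it was also abundant in the input at 5863, so its ratios were only 1.64 (1.38 to 1.95) and 1.40 (1.18 to 1.66). Not every member was high in the RIP. AT3G54580, the most abundant member in the input at 7256 CPM outside rRNA, lay below it at 3291 and 3666, whereas the WT RIP libraries, at 16632 and 6164, lay above the WT input at 3944.

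Of the 20 listed members, 7 were at least 2-fold above the input in both RIP libraries and 2 below (AT1G23720 and EXT11). These are 35% and 10% against 6.2% and 4.18% of all genes, most of which had too few input counts to be 2-fold lower. The median log2 fold was 0.75, against 0.43 over all genes, and the members held 2.87% of the input counts outside rRNA, 5.86% of RIP 1 and 6.35% of RIP 2. Without AT2G15880 the shares were 2.62%, 3.49% and 3.55%. The 12 members listed for both genotypes held 2.48% of the ASI1 input, 5.52% of RIP 1 and 6.12% of RIP 2. In WT the same 12 held 1.54% of the input, 6.31% of RIP 1 and 5.16% of RIP 2, so the share was higher in the RIP there too. edgeR called 0 members (3 at an unadjusted p under 0.05), whereas DESeq2 called AT2G15880, LRX3 and AT4G18670 higher and AT3G54580 lower. Extensins share repeats, and how reads were split among them is uncertain: 31.3% of the 31-base stretches of EXT3 occur in another transcript, against 0.187% in AT2G15880.

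Arabinogalactan and fasciclin-like proteins, glycoproteins of the cell surface, lay more often above the input than below it. AGP9 had 432 CPM outside rRNA in the input, 3561 in RIP 1 and 4041 in RIP 2 (ratios 8.25, 95% interval 4.60 to 17.7, and 9.36, 5.22 to 20.1; adjusted p = 0.259 in edgeR, 6.62e-05 in DESeq2), and in WT 435, 3299.6 and 1744. AGP7 had 86.4, 720.1 and 409.6, AGP10 had 173, 834 and 387, and FLA1 had 43.2, 720.1 and 294. AGP17, a protein linked to the binding of Agrobacterium to roots, was at 0 in the input and at 261 and 597 in the RIP libraries. Input values of these genes other than AGP9 rest on fewer than 5 counts. Of 23 listed members 6 were at least 2-fold above the input (26.1%) and 0 below, against 6.2% and 4.18% of all genes. The side of AGP17, at 0 in the input, was fixed by the listing rule. Only members with at least 10 input counts could be 2-fold lower. Above the input in both RIP libraries lay 11 members and below it 3, and the median log2 fold was 1.04. The 12 members listed for both genotypes held 0.259% of the ASI1 input counts outside rRNA, 0.765% of RIP 1 and 0.676% of RIP 2. In WT the same 12 held 0.159%, 1.35% and 0.841%, so the share was higher in the RIP there too. edgeR called 0 members (1 at an unadjusted p under 0.05), whereas DESeq2 called AGP9 higher.

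Among the other genes that DESeq2 called higher were 4 that belong to none of the lists. AT5G14920, a gibberellin-regulated protein with a proline-rich stretch, had 821 CPM outside rRNA in the input, 4197 in RIP 1 and 7499 in RIP 2. AT2G10940, annotated as a lipid-transfer protein, had 389, 2370.1 and 3179, and AT4G34150, with a calcium-dependent lipid-binding domain, had 216, 3104 and 2342. KCS20, a synthase of very long chain fatty acids for the cuticle, had 346, 2023 and 1970.03. All 4 passed in DESeq2 (adjusted p from 2.73e-05 to 0.023) and none in edgeR (adjusted p from 0.159 to 1.00). In WT their RIP libraries disagreed: AT5G14920 had 1721 CPM outside rRNA in the input, 0 in RIP 1 and 3386 in RIP 2, and AT4G34150 had 33.4, 0 and 1247.

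**Figure D3:**
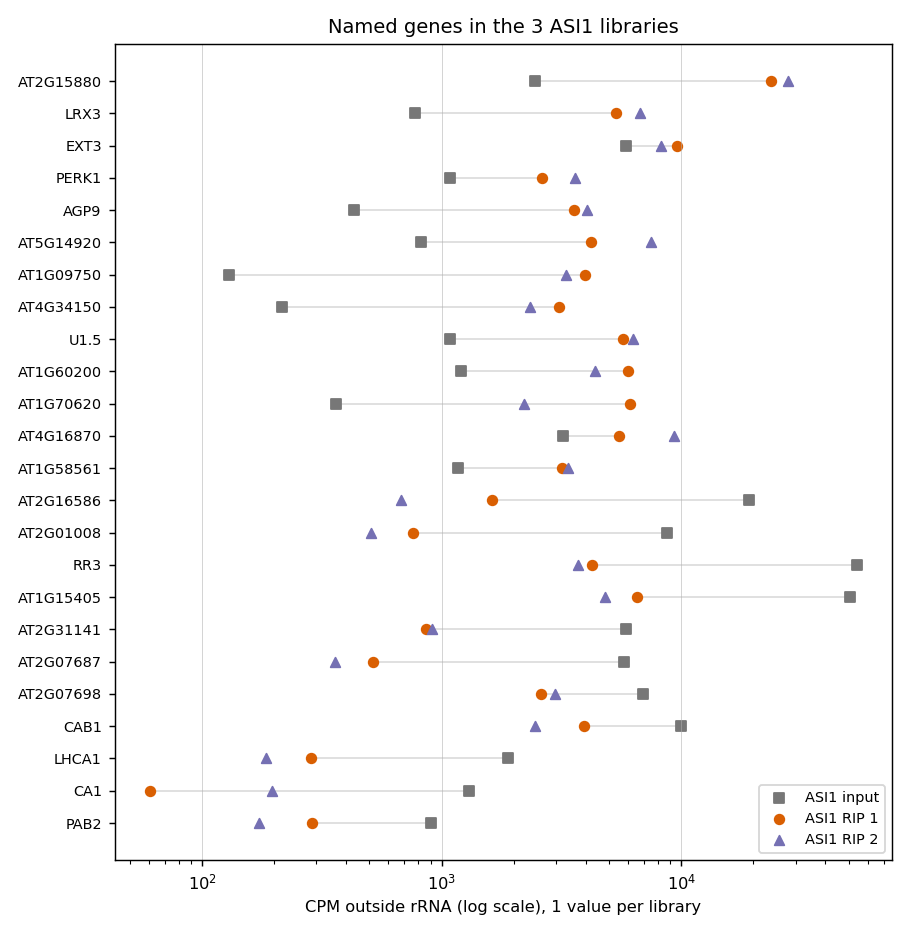
Levels of 24 named genes in CPM outside rRNA (horizontal log axis) in the ASI1 input (square), RIP 1 (circle) and RIP 2 (triangle), 1 value per library. The RIP libraries lie to the right of the input for the upper 13 genes and to the left for the lower 11.

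Among RNAs and proteins of splicing, single members stood high, and the list had a median below that of all genes. U1.5 had 1079.7 CPM outside rRNA in the input, 5736 in RIP 1 and 6314 in RIP 2 (ratios 5.31, 95% interval 3.58 to 8.06, and 5.85, 3.94 to 8.87; adjusted p = 0.642 in edgeR, 1.73e-05 in DESeq2). Per kb of transcript it was the most abundant of the genes named here in both RIP libraries, at 34765 and 38266 CPM outside rRNA per kb, against 22289 and 16475 for AT1G15405 and 8735 and 10343 for AT2G15880. In the WT RIP it was higher still, at 12724 and 6918 CPM outside rRNA where the WT input had 451. U1 genes are near copies, and 64.4% of the 31-base stretches of U1.5 occur in another transcript.

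AT1G60200, an RBM25-like splicing factor with a PWI domain, had 1209 CPM outside rRNA in the input, 6013 in RIP 1 and 4373 in RIP 2 (ratios 4.97, 95% interval 3.43 to 7.39, and 3.62, 2.49 to 5.38; adjusted p = 1.00 in edgeR, 0.000842 in DESeq2). In WT it had 769, 0 and 60.8. ATU2AF65A, the large subunit of the factor that binds the polypyrimidine tract, had 432, 869 and 1408, and the serine/arginine-rich AT4G36980 had 907, 1683 and 2065. Below the input lay PRP40B, a U1-associated protein, at 432, 135 and 0. Over the 29 listed members 4 were at least 2-fold above (13.8%) and 3 below (10.3%), against 6.2% and 4.18% of all genes. AT5G51300, among those 4, was at 0 in the input, so the listing rule fixed its side. Only genes with at least 10 input counts could be 2-fold lower. The median log2 fold was -0.02, against 0.43 over all genes. edgeR called 0 members (2 at an unadjusted p under 0.05), whereas DESeq2 called AT1G60200 higher.

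The 29 listed noncoding RNA genes lay on both sides of the input. At least 2-fold above the input lay 9 (31%, against 6.2% of all genes). Among the 9 were U1.5, the long noncoding RNA GUT15 at 129.6, 655 and 787 CPM outside rRNA, and AT4G13495 at 346, 1883 and 1090.3. AT1G31485 and AT1G60525, also among the 9, were at 0 in the input, so the listing rule fixed their side. At least 2-fold below lay 3 (10.3%, against 4.18% of all genes), a class open only to genes with at least 10 input counts. These 3 were AT1G15405, AT3G22121 and the U3 small nucleolar RNA gene U3D, whose RNA acts in the processing of pre-rRNA, at 1018, 86.2 and 314. AT4G13495 carries 1 of the 5 listed introns of at least 2000 bases (2621 bases). The others were in RPP7 (7384 bases), RPP4 (3158), AT2G07717 (3081) and AT3G44610 (2339), of which none was 2-fold above or below the input in both RIP libraries. edgeR called 0 of the 29 genes, and 2 had an unadjusted p under 0.05; calls by DESeq2 were U1.5, higher, and AT1G15405, lower.

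Of the 2 listed known targets of ASI1, 0 lay above the input in both RIP libraries. IBM1 lay below it in both, and RPP7 above it in RIP 1 and below it in RIP 2. RPP7 (AT1G58602), a downy mildew resistance gene with a heterochromatic repeat in its long intron, had 864 CPM outside rRNA in the input, 1503 in RIP 1 and 718 in RIP 2, and IBM1, a histone demethylase gene, had 302, 0 and 291. RPP7 and IBM1 together held 0.117% of the ASI1 input counts outside rRNA, 0.150% of RIP 1 and 0.101% of RIP 2. In WT they held 0.0401% of the input, 0 of RIP 1 and 0.00203% of RIP 2. The pseudogene AT1G58561 inside the RPP7 intron had 1166, 3188 and 3372 (ratios 2.73, 95% interval 1.87 to 4.09, and 2.89, 1.97 to 4.33; adjusted p = 1.00 in edgeR, 0.0653 in DESeq2). Of these 3 genes the pseudogene alone lay above the input in both RIP libraries, and its reads cannot be told apart from those of the RPP7 intron; in WT it had 267, 0 and 10.1. Among the partners, the ASI1 transcript itself had 107 CPM outside rRNA in the input on 2.54 counts, 254 in RIP 1 and 554 in RIP 2. EDM2 had 129.6, 785 and 219, and AIPP3 (AT4G11560), a partner with a bromo-adjacent homology domain, was at 0 in the input and at 219 and 202, at least 1.74-fold and 1.60-fold above the 3-count floor of the input.

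Factors of chromatin and of the poly(A) tail formed small lists on different sides of the input. Of 11 DNA methylation and heterochromatin factors 2 were at least 2-fold above the input and 0 below (median log2 fold 1.17): ASI1 itself and the chromatin remodeller CHR5, at 0 in the input and 1039 and 352 CPM outside rRNA in the RIP libraries. Of 6 poly(A) and cleavage factors 3 were at least 2-fold below and 0 above. The 3 were all poly(A) binding proteins. Over all genes 6.2% were at least 2-fold above and 4.18% below, but only genes with at least 10 input counts could be lower. Of genes with over 9 to 19 input reads 96 of 334 were lower, and with over 19 reads 72 of 144. PAB4 and PAB8 each had 10.3 input counts, close to that minimum. In direction alone, 5 of the 6 lay below the input in both RIP libraries. PAB2 had 907, 289 and 173, PAB4 432, 147 and 0, and PAB8 432, 124 and 0. The exception was the nuclear poly(A) polymerase nPAP, at 0 in the input and 135 and 727 in the RIP libraries. A gene at 0 in the input is listed only with both RIP libraries above 0. The side of nPAP and CHR5 was thus fixed in advance, though not their distance from the 3-count floor. The median log2 fold of the tested members of the 6 was -1.99, and 3.11 with rRNA kept in the totals, where the median of all genes was 5.45. edgeR called 0 of both lists, and 1 and 0 members had an unadjusted p under 0.05; DESeq2 also called 0.

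Nuclear photosynthesis genes lay more often below the input than above it. Of 38 listed, 9 were at least 2-fold below it (23.7%) and 0 above, and 20 lay below in both RIP libraries and 3 above. The 4.18% of all genes is no like base, since only genes with at least 10 input counts can be 2-fold lower. Of genes with over 9 to 19 input reads 96 of 334 were lower, and with over 19 reads 72 of 144. The median log2 fold was -0.86, which turned to 4.32 with rRNA kept in the totals, where the median of all genes was 5.45. CAB1, a chlorophyll a/b binding protein of photosystem II, had 9974 CPM outside rRNA in the input, 3928 in RIP 1 and 2463 in RIP 2 (ratios 0.394, 95% interval 0.344 to 0.454, and 0.247, 0.214 to 0.287; adjusted p = 1.00 in edgeR, 2.54e-05 in DESeq2). LHCA1, of the photosystem I antenna, had 1900.3, 284 and 185; LHCB5 had 3109.6, 681 and 49.0; and PSBO1, of the oxygen-evolving complex, had 1728, 713 and 407. In these 4 genes RIP 2 was lower than RIP 1 throughout. PSAF, a docking subunit of photosystem I, was an exception above the input, at 993, 2188 and 1560.4. The list took 4.15% of the input counts outside rRNA, 2.61% of RIP 1 and 1.36% of RIP 2. In WT it took 7.96% of the input, 3.92% of RIP 1 and 8.49% of RIP 2, with one RIP library below and one above the input. edgeR called 0 members (3 at an unadjusted p under 0.05), whereas DESeq2 called CAB1 and LHCA1 lower. CA1, a chloroplast carbonic anhydrase outside this list, had 1296, 60.6 and 196, with the opposite order in WT at 501 in the input and 2719.9 and 4689 in the RIP libraries.

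The translation machinery also lay more often below the input than above it. Of 72 ribosomal protein genes 3 were at least 2-fold above (4.17%) and 8 below (11.1%), against 6.2% and 4.18% of all genes. Above the input in both RIP libraries lay 9 of them and below it 29. Only genes with at least 10 input counts could be 2-fold lower. The median log2 fold was -0.28 (4.84 with rRNA kept in the totals, where the median of all genes was 5.45). AT3G62870, of the large subunit, had 691 CPM outside rRNA in the input, 21.0 in RIP 1 and 8.65 in RIP 2, and AT5G02870, also of the large subunit, had 86.4, 648 and 637. Of 12 translation elongation factors 2 were below, 0 above and the median was -0.72 (4.36 with rRNA kept), and of 10 tubulins TUB2 alone was below, 0 above, with a median of -0.76 (4.33). edgeR called 0 members of the 3 lists, and 1 ribosomal protein gene had an unadjusted p under 0.05; DESeq2 also called 0.

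Heat shock and rapid stress genes, a list made mostly of transcription factors, lay on both sides of the input. Of 45 listed, 7 were at least 2-fold above the input (15.6%) and 2 below (4.44%), against 6.2% and 4.18% of all genes. Only genes with at least 10 input counts could be 2-fold lower. Above the input in both RIP libraries lay 13 and below it 8, with a median log2 fold of 0.92. The 7 higher genes were the WRKY factors WRKY11, WRKY15, WRKY26, WRKY47 and WRKY53, which respond to pathogens or heat, and the ethylene response factors ERF104 and RAP2.2. WRKY11 was at 0 in the input and at 466 and 969 CPM outside rRNA in the RIP libraries, at least 3.70-fold and 7.69-fold above the 3-count floor of the input. The side of WRKY11 was fixed by the listing rule. WRKY15 had 216, 627 and 661 on 5.14 counts in the input. The 2 lower genes were the chaperones HSP60, at 518, 83.9 and 0, and HSP81-2, at 771, 270.3 and 0. edgeR called 0 members (2 at an unadjusted p under 0.05), and DESeq2 also called 0.

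Of the remaining lists, pseudogenes had a median log2 fold of 1.41 with 8 of 56 at least 2-fold above and 2 below. These are 14.3% and 3.57%, against 6.2% and 4.18% of all genes. AT4G08112 and AT5G14840, among those 8, were at 0 in the input, so the listing rule fixed their side. AT4G16870, next to RPP4 and not among those 8, had 3196, 5516 and 9296 CPM outside rRNA. Disease resistance genes of the NLR family had 2 of 31 above and 1 below (6.45% and 3.23%), and ubiquitin and chaperone genes 2 of 45 above and 1 below. Of 21 pentatricopeptide genes and of 4 histone genes 0 passed 2-fold in either direction. Of 8 aquaporins PIP1B alone was above, and of 4 root genes PYK10 alone was below. Beyond AT2G07687, edgeR called 0 of the 478 members of any list, and 26 had an unadjusted p under 0.05; calls by DESeq2 were 8 higher and 8 lower.

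**Figure D4:**
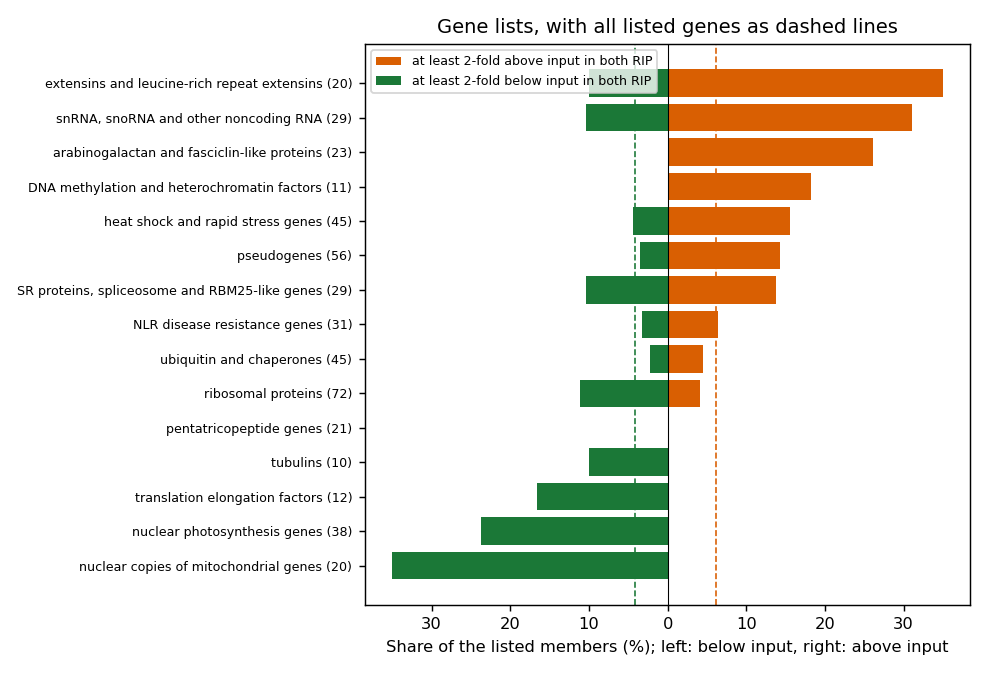
For each list with at least 10 listed members (number in brackets), the bar to the right is the share of members (%) at least 2-fold above the input in both RIP libraries and the bar to the left the share at least 2-fold below. Dashed lines give the shares over all 4016 genes, 6.2% and 4.18%. Only genes with at least 10 input counts could count as 2-fold below, so the left line is no like base for lists abundant in the input. Extensins reach 35% on the right, and copies of mitochondrial genes 35% on the left; scaled with rRNA kept in the totals, 0 genes lie 2-fold below.

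The RIP libraries lay closer to each other for abundant genes than for the rest. Of 1436 genes with at least 20 counts in both RIP libraries, 856 (59.6%) were within 2-fold of each other, and Spearman's rho was 0.345 across these genes. With at least 200 counts in both, 165 of 186 genes (88.7%) were within 2-fold (rho 0.632), and among the 20 genes with the highest minimum all 20 were (rho 0.786). By contrast, 1033 genes had at least 20 counts in RIP 1 and 0 in RIP 2, with a median of 87.8 counts, and 750 had at least 20 in RIP 2 and 0 in RIP 1, with a median of 89.8. A single read was worth 1.05 counts in RIP 1 and 1.04 in RIP 2, so these counts are close to reads. The widest gap was that of AT4G38550, a PEARLI 4 family gene, with 1074 CPM outside rRNA in the input, 0 in RIP 1 and 3002 in RIP 2. In the other direction stood iqd2, a calmodulin-binding protein gene, at 561, 1242 and 0, the polyubiquitin gene UBQ3 at 475, 1233 and 0, and the actin gene ACT8 at 561, 1002 and 0. The polyubiquitin gene UBQ10 was high in both, at 915, 2333 and 2632.

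How often a gene was covered in both RIP libraries moved with its depth in the input. Of 1001 genes with up to 1 read in the input, 192 (19.2%) had at least 20 counts in both RIP libraries and 614 had at least 20 in one and 0 in the other. The first share was 23.8% of 1172 genes with over 1 to 3 reads, 38.7% of 1086 with over 3 to 9, 53.6% of 334 with over 9 to 19 and 81.9% of 144 with more. Genes at 0 in the input, which the listing rule admits only when both RIP libraries are above 0, reached 88.9% of 279. The direction of the difference moved with input depth as well. Of the 144 deepest genes 18 lay above the input in both RIP libraries and 114 below, against 194 above and 56 below among the 1001 genes with up to 1 read. Sorting genes by the same input they are then set against favours this order by itself, so these counts give no result on direction. Among the genes at 0 in the input with the most RIP counts were PDF1, an epidermal cell wall protein gene, at 433 and 1188 CPM outside rRNA, and the homeobox gene HB23 at 431 and 1073. They lay at least 3.44-fold and 9.43-fold, and at least 3.42-fold and 8.52-fold, above the 3-count floor.

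**Figure D5:**
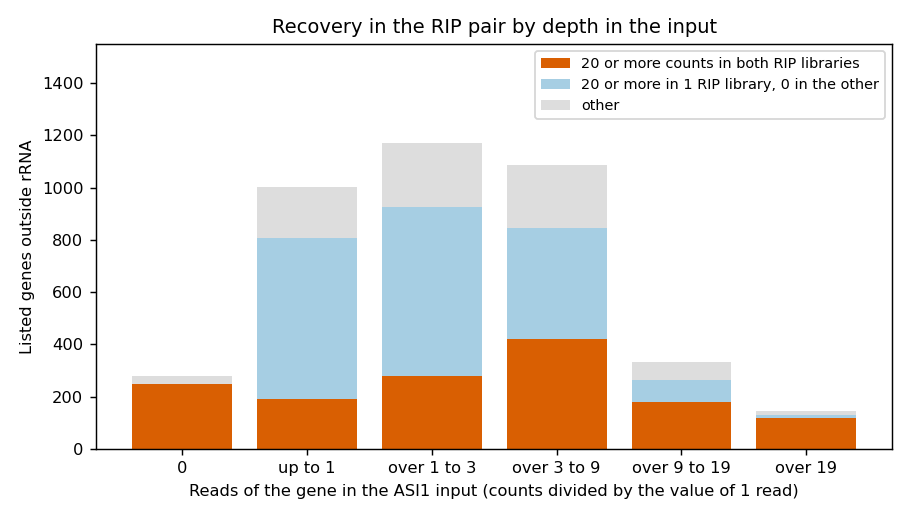
Bars count the listed genes outside rRNA by their reads in the ASI1 input (horizontal axis, counts divided by the value of 1 read). Orange marks genes with 20 or more counts in both RIP libraries, blue those with 20 or more in one and 0 in the other; the orange share grows from 19.2% with up to 1 read to 81.9% with over 19 reads, and the 0 bar is set by the listing rule.

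Genes above the input had fewer exons, as a description with no test. The median exon number was 3 for the 249 genes at least 2-fold above the input, 7 for the 168 below it and 5 for all 4016. The longest intron had a median of 201, 288.5 and 263 bases, and the transcript a median of 2156, 2365.5 and 2080.5 bases. Across 3934 genes Spearman's rho between the log2 fold and exon number was -0.196, and across the 117 genes with at least 20 counts in all 3 libraries it was -0.0649. The points share the same 3 libraries, and genes are no independent replicates.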

How the data were processed

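Expected counts per gene (estimated read counts, which need not be whole) of the ASI1 input and both RIP libraries were taken as the authors deposited them, per the file headers. The deposited tables also hold CPM on listed totals and the authors' own log2 fold changes, p-values and FDR, which were not used here. STAR 2.6.0c, Salmon 0.10.2 and edgeR are listed in the submitters' processing notes. The sources used here give neither the role of each, nor the genome build, nor the strand setting. Between 95.0% and 98.2% of the values of a library were whole multiples of the value of 1 read, within 0.02 of a whole number. Gene identifiers matched RefSeq TAIR10.1 in 100% of cases and gave symbols, coordinates and sequences. Transcripts were matched to the 7SL gene, the spacer and the mitochondrial genome with BLAST 2.17.0.

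Counts were rounded and fitted with edgeR 4.0.16 (quasi-likelihood, filterByExpr, library size set to the counts outside rRNA) in R 4.3.3 with limma 3.58.1; the step was tested on simulated data. The difference between the genotypes was fitted over all 6 libraries and the genes listed for both. A gene counted as 2-fold higher with both RIP libraries at least 2-fold above the input, the input raised to 3 counts, and as 2-fold lower with at least 10 input counts and both RIP libraries, raised to 3 counts, at least 2-fold below. Alternatives were TMM scaling, listed totals, no filter, at least 20 counts in 2 of 3 libraries, DESeq2 1.42.0 with its own size factors, no abundance trend, division by the read step, all 6 libraries together, and each RIP replicate left out.

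The members and gene lists were chosen with earlier results of these data known. Genes named were the 10 largest in both RIP libraries, all called genes, the extremes among genes covered at 20 counts in all 3 libraries, genes at 0 in the input or with the widest gap between RIP libraries, the ASI1 targets and partners, and up to 4 members per list by level per kb; the 27 genes with matching sequence, list members at 2-fold, DESeq2 calls and AT1G58561 were added after their values were seen. Tables were handled with pandas 2.3.3 and numpy 2.4.6 under Python 3.11.15, intervals computed with scipy 1.17.1 and plots drawn with matplotlib 3.10.9.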

Additional observations from a re-analysis of the deposited data

Results flagged for a closer look

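Given here are 9 named genes listed for both genotypes. In each, both ASI1 RIP libraries lay on one side of their input and both WT RIP libraries on the other. The 9 are not all such genes. AT3G54580 and HSP81-2 also met this rule, below the input in ASI1 and above it in WT. For AIPP3 and WRKY11, at 0 in the ASI1 input, the listing rule fixed the ASI1 side in advance. Each difference below is the ASI1 minus WT log2 difference in enrichment in edgeR, and none passed the test after adjustment (0 of 2233 genes). Levels are in CPM outside rRNA.

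The aspartyl protease gene AT1G09750 differed by 6.56 (unadjusted p = 0.0884), with 3974 and 3303 in the ASI1 RIP, 129.6 in its input, 134 and 142 in the WT RIP and 451 in the WT input. The pseudogene AT1G58561 in the RPP7 intron differed by 6.57 (unadjusted p = 0.0968), with 3188 and 3372 against 1166 in ASI1 and 0 and 10.1 against 267 in WT. The splicing factor gene AT1G60200 differed by 6.52 (unadjusted p = 0.0426), with 6013 and 4373 against 1209 in ASI1 and 0 and 60.8 against 769 in WT. In these 3 genes both WT RIP libraries lay under their input.

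The carbonic anhydrase gene CA1 went the other way with a difference of -6.21, at 60.6 and 196 against 1296 in ASI1 and 2719.9 and 4689 against 501 in WT. UBQ10 differed by 2.61, at 2333 and 2632 against 915 in ASI1 and 669 and 1206 against 2156 in WT. The serine/arginine-rich gene AT4G36980 differed by 4.53, at 1683 and 2065 against 907 in ASI1 and 44.6 and 10.1 against 267 in WT. EDM2 differed by 3.65, at 785 and 219 against 129.6 in ASI1 and 89.2 and 0 against 117 in WT.

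For 2 genes at 0 in the ASI1 input the size of the fitted difference depends on the prior count and is no bound. Such genes were listed only with both RIP libraries above 0, so their direction in ASI1 is no result. AIPP3 (AT4G11560) differed by 10.63, at 219 and 202 against 0 in ASI1 and 44.6 and 10.1 against 134 in WT. WRKY11 differed by 11.76, at 466 and 969 against 0 in ASI1 and 44.6 and 10.1 against 83.6 in WT. WT RIP 1 held 23304 counts outside rRNA, so that 3 counts there stand for 129 CPM outside rRNA.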

How the results depend on the processing

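The number of edgeR calls (1 higher, 4 lower) moved with most settings. It was 1 and 10 with TMM factors, 494 and 0 with listed totals, 5 and 8 with the stricter filter, 17 and 20 in DESeq2, 0 and 0 without an abundance trend (0 genes at an unadjusted p under 0.05), and 1 and 2 with all 6 libraries together; without a filter and with the read step it was 1 and 4. Chosen after seeing the data, the scaling outside rRNA and the 27 genes with matching sequence gave 0 and 0. All 4 genes called lower in the main fit are among those 27, so they could not be called there. Leaving out ASI1 RIP replicate 1 or 2 in the fit of all libraries, also chosen after seeing the data, gave 0 higher and 1 lower each time. The planned fit of 1 RIP library against the input gives no test of calls. With listed totals AT1G15405 (1.97), AT2G01008 (1.34), AT2G07687 (1.39), AT2G16586 (1.04) and RR3 (1.36) turned positive on the log2 scale; this setting credits the RIP libraries with their lower rRNA share. AT1G09750 was called in 6 of 11 alternatives, with a log2 fold from 4.36 to 9.89 and an adjusted p from 3.15e-38 with listed totals to 0.9997 without an abundance trend. RR3 was called lower in 8 of 10, and higher with listed totals.

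The 2-fold counts (249 higher, 168 lower) were 114 and 250 with TMM factors, 1668 and 0 with listed totals, 41 and 168 with a floor of 10 counts, 48 and 52 at 4-fold, and 167 and 190 outside those 27 genes. With 1 RIP replicate left out they ranged from 681 to 892 higher and from 256 to 266 lower, since 1 library then decides each gene. The causes of the other shifts were not tested. The difference between the genotypes gave 0 calls under every alternative run. Of 156 alternative values of single genes and lists, 117 kept direction and side of the threshold.

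No paired analysis was possible because each genotype has 1 input library. The input's 23810.4 counts outside rRNA limit the comparison: 3 counts stand for 126 CPM there, so a difference under that level was not detectable for a gene at 0.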
